A study of Homo sapiens with 6 samples.

Results

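Alzheimer disease genes other than MAPT, 9 in all, were examined in 2 lists of chromatin peaks from human neurons: APP, BACE1, PSEN2, ADAM10, SORL1, BIN1, PICALM, CLU and APOE. The 9 were taken by name from the 19974 protein-coding genes of the RefSeq table on 23 chromosomes. For each one, every CTCF or H3K27ac peak was collected that shared at least 1 bp with the gene interval extended by 20 kb on both sides. This gave 68 of the 78694 H3K27ac peaks and 32 of the 43677 CTCF peaks. Chromatin immunoprecipitation followed by sequencing (ChIP-seq) had been carried out on KOLF2.1J cells, a widely used human iPSC (induced pluripotent stem cell) line, which had been taken through a progenitor stage to neurons. No treatment or genetic change is named. The 6 libraries were 2 for CTCF, 2 for H3K27ac and 2 inputs, all from this 1 line. Each antibody has 1 deposited list that covers both replicates, so no spread between replicates can be given and no test was made. The read depth behind the peaks is unknown.

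The proteins meet in one pathway. APP is the precursor of the amyloid-beta peptide. The protease ADAM10 cuts it within the amyloid-beta sequence, whereas BACE1 followed by gamma-secretase, in which PSEN2 can be the catalytic subunit, releases the peptide. SORL1, BIN1 and PICALM act in endocytosis and in the sorting of membrane proteins between compartments, and APOE and CLU encode secreted lipid-carrying proteins that are made mainly by astrocytes in the brain. H3K27ac marks active promoters and enhancers, and CTCF is a DNA-binding protein that holds chromatin loops. H3K27ac values below were read as fold enrichments from their range and layout. CTCF values are peak signal values on a scale that is not stated. Both are the authors' own values per peak and are not comparable with each other. A percentile is the rank of a peak's value within its own list, and positions are on hg38.

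All 9 genes had a peak of each list within 20 kb, against 81.3% of protein-coding genes for H3K27ac and 83% for CTCF. Inside the gene interval itself, 8 of 9 genes carried H3K27ac (69% of protein-coding genes) and 7 of 9 carried CTCF (55.6%). APOE had neither inside the gene, and PSEN2 had no CTCF peak there. The strongest H3K27ac peak overlapping each gene had a median fold enrichment of 9.80 over the 9 genes, close to the 8.64 over all protein-coding genes, with genes that lack a peak counted as 0. The corresponding CTCF medians were 244 for the 9 genes and 37.2 for all protein-coding genes. That gap depended on the interval: within 20 kb the CTCF medians were 252 and 167, and within 50 kb they were 272 and 223. The 9 genes are longer than most, with a median length of 59132 bp against 24171 bp, and a longer gene offers more room for a peak. Per 100 kb of extended interval the 9 genes had a median of 5.04 H3K27ac and 2.26 CTCF peaks, against 3.86 and 2.37 over all protein-coding genes. A peak present in few cells of a culture and a peak that is weak in every cell cannot be told apart in these lists.

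**Figure D1:**
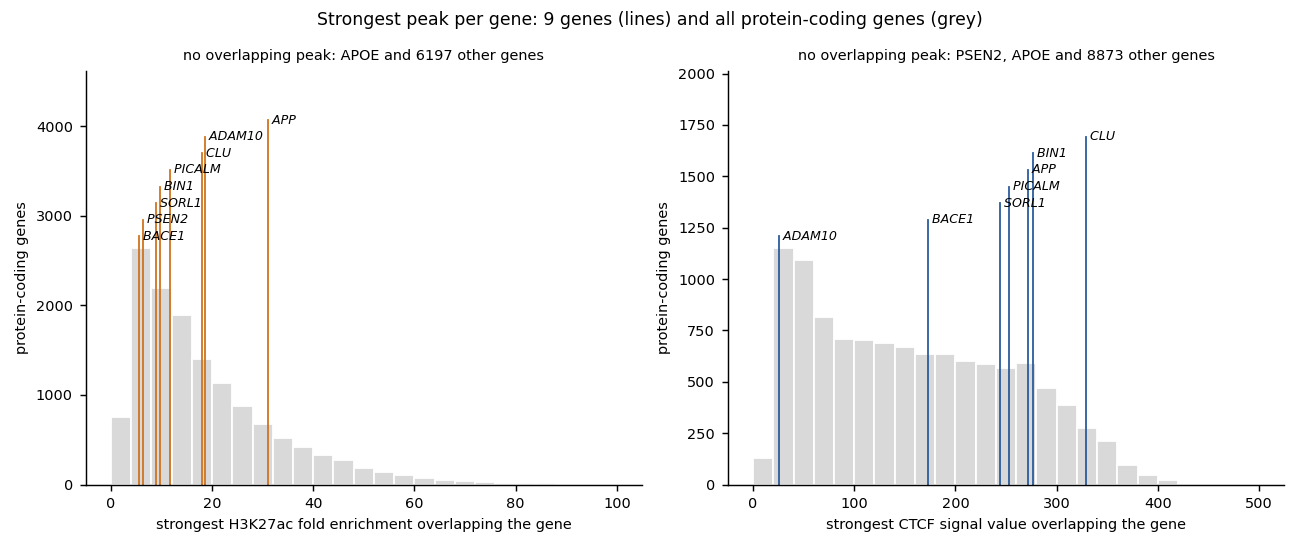
Histograms of the strongest H3K27ac fold enrichment (left, orange lines) and the strongest CTCF signal value (right, blue lines) among peaks that overlap each gene interval. Grey bars count protein-coding genes, and the lines mark the genes named beside them (line height only separates the labels): H3K27ac ranged from 5.57 at BACE1 to 31.0 at APP, and CTCF from 26.1 at ADAM10 to 329 at CLU.

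At their starts the 9 genes differed in which peaks they carried. RefSeq start positions were at hand for 8 genes, all except CLU. An H3K27ac peak covered a start in 6 of 8 (46.6% of the 15812 protein-coding genes with a start), namely APP, BACE1, ADAM10, SORL1, BIN1 and PICALM. A CTCF peak covered a start in 3 of 8 (19.9%), and in all 3, APP, BACE1 and SORL1, H3K27ac covered the same start (12.8% of protein-coding genes). In the whole list, 87% of CTCF peaks over a protein-coding start overlapped H3K27ac. Neither peak covered a start of PSEN2 or APOE (47.1%). With a wider view of 1 kb around the starts, an H3K27ac summit was found at 7 of 8 genes (65.1%) and a CTCF summit at 4 of 8 (33.4%). The gene missing from the first count was APOE. The gene added to the second was BIN1, whose CTCF peaks beside the start were weak, with signal values of 29.9 and 36.5.

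**Figure D2:**
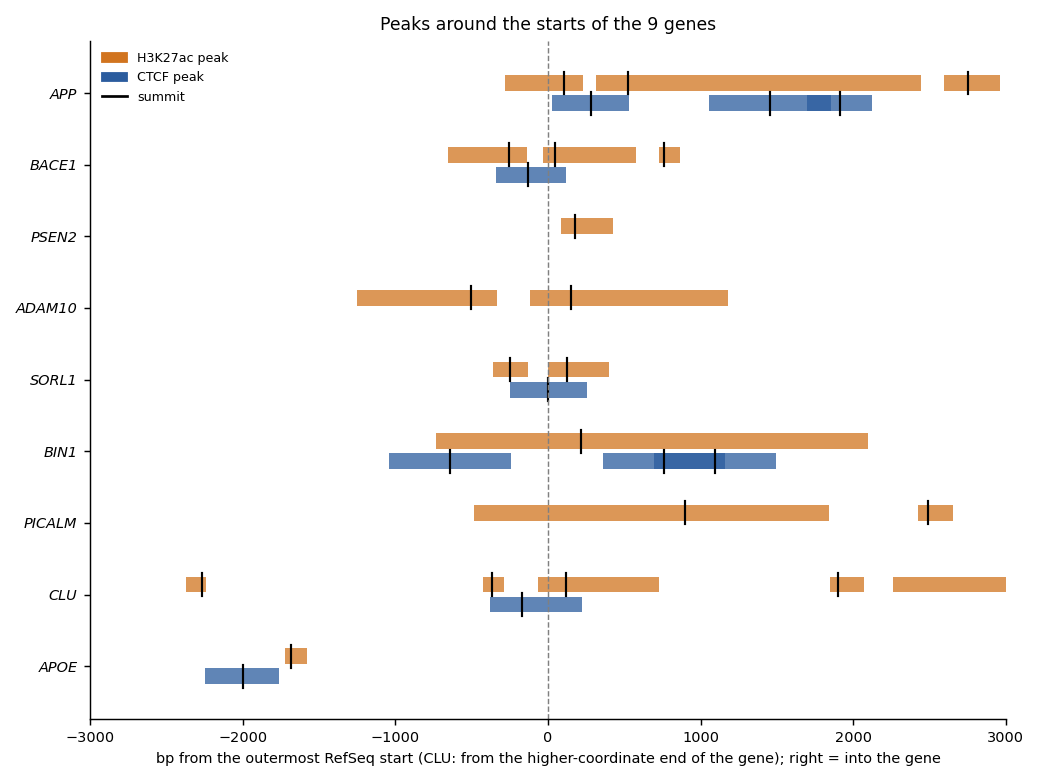
Peak intervals around the outermost RefSeq start of each gene (dashed line, distance in bp, the gene running to the right). For CLU the line is the higher-coordinate end of the gene interval. Orange bars are H3K27ac peaks, blue bars are CTCF peaks and black ticks are summits: at APP, BACE1, SORL1 and CLU the CTCF summit lies in the break between 2 H3K27ac peaks.

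At these 3 starts and at 1 end of CLU the CTCF summit lay between 2 H3K27ac peaks rather than inside one. At SORL1 the CTCF summit was 1 bp from the RefSeq start, in a break of 131 bp between H3K27ac peaks of fold enrichment 4.61 and 8.98. At APP it was 77 bp upstream of the inner RefSeq start, in a break of 86 bp between peaks of 31.0 and 12.5. At BACE1 it was 128 bp upstream of the start, in a break of 105 bp between peaks of 5.25 and 2.85. At the higher-coordinate end of CLU, it was 171 bp beyond the gene, in a break of 224 bp between peaks of 14.1 and 2.94. Of the 12 CTCF peaks at the 9 genes that overlapped H3K27ac, 4 had the summit in such a break, 6 had it inside an H3K27ac peak and 2 had it to one side. Of all CTCF peaks, 2.95% had the summit in such a break. Among those that overlapped H3K27ac, 10.5% had the summit in a break, and among those that also covered a protein-coding start the share was 14.1%. The arrangement was noticed after the values were seen, and the 4 genes were not chosen independently of it. It rests partly on weak flanking peaks: with only the stronger 50% of each list, 1 of the 4 breaks remained, at APP.

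The RefSeq windows (GRCh38.p14) from 250 bases before to 50 bases after the start are printed for the 3 genes with both peaks over a start and for the 2 with neither, since the 2 groups differ in occupancy. Capitals mark matches on either strand to any of 9 motifs. These were 3 forms of a CTCF core chosen first (a long consensus, GGNGGCAG and AGGGGGC), the GC box GGGCGG, the NRF1 motif, CCAAT and TATAAA, and 2 further CTCF cores, CTAGGGG and AGNNGGCGC, added after the sequences had been read. Matches of different motifs can share bases.
APP, chr21:26170721-26171020, minus strand: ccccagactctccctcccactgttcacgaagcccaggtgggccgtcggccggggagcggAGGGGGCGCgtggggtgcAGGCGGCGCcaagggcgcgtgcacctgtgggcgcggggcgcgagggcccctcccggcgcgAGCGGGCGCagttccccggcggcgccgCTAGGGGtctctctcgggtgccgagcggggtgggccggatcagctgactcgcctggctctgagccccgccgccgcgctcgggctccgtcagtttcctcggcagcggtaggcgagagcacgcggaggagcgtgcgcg
BACE1, chr11:117316207-117316506, minus strand: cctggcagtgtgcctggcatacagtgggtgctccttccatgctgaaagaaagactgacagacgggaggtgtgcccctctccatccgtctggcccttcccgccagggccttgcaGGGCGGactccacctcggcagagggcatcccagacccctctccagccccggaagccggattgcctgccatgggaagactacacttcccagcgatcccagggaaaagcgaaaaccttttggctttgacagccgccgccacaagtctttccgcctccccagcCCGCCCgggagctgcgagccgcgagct
SORL1, chr11:121452064-121452363, plus strand: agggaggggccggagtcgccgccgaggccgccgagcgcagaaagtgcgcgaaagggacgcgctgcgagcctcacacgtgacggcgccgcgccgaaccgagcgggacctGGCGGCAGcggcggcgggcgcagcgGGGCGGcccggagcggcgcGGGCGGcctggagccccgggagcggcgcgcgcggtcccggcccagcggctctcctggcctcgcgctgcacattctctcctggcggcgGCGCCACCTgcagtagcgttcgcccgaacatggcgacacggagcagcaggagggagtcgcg
PSEN2, chr1:226870366-226870665, plus strand: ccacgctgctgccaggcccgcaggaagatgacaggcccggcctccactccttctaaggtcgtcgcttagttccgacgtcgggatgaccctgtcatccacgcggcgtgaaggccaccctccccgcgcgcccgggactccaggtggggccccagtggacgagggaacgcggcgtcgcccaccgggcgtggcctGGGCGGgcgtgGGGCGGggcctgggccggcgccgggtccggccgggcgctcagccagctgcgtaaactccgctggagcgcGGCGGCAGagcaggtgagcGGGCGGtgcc
APOE, chr19:44905546-44905845, plus strand: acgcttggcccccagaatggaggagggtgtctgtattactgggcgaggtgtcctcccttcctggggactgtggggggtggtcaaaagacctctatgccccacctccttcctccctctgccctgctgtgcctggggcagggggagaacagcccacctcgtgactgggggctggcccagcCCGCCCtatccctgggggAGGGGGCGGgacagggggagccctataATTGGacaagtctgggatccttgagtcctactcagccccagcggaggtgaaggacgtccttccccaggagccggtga

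Counted from the first printed base, the CTCF summit was at base 174 in APP, and the match CTAGGGG at bases 165 to 171 had its centre 6 bases from it. In SORL1 the summit was at base 250 and a reverse-strand match to AGNNGGCGC at bases 240 to 248 also had its centre 6 bases away. In BACE1 the summit was at base 123. None of the 5 CTCF cores occurred in the BACE1 window, and the nearest match of any kind was a GC box at bases 114 to 119. Both matches near a summit were to the cores added after reading. Of the cores chosen first, AGGGGGC was 111 bases from the summit in APP and GGNGGCAG was 137.5 bases from it in SORL1. GGNGGCAG also occurred in the PSEN2 window and AGGGGGC in the APOE window, where no CTCF peak covered the start. These matches are descriptions of letters and not of binding. CTAGGGG occurred in 3.76% of the 34961 RefSeq windows of this length and in 6.83% of the 3234 that held a CTCF summit. Its centre was within 20 bases of the summit in 2.75% of the latter. AGNNGGCGC occurred in 10.4% and 32.1% of the same windows, with its centre within 20 bases of the summit in 18.4% of the latter. GGNGGCAG was in 16.7% of all windows, AGGGGGC in 14.4%, the long CTCF consensus in 0.0658%, GGGCGG in 45.0%, the NRF1 motif in 5.80%, CCAAT in 34.6% and TATAAA in 11.5%.

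The same windows differed in CpG content, and CpG number did not follow the peaks gene by gene. The SORL1 window held 52 CpG dinucleotides, more than 99.03% of protein-coding start windows, and the APP window held 43. BACE1, also with both peaks, had only 17. The window of PSEN2, with no peak over the start, held 38, whereas the 3 windows of APOE held 8, 12 and 11, near the median of 10 over the 11210 protein-coding start windows with neither peak. Windows with both peaks had a median of 28 CpG and those with H3K27ac alone a median of 26. Among the members with H3K27ac alone over the start, BIN1 had 38, ADAM10 had 30 and PICALM had 29 at its inner and 3 at its outer start. The ADAM10 window was the only one among the 8 genes with an NRF1 motif.

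Of the 4 genes of APP processing, APP (chr21:25880550-26171128, gene ID 351) had the most peaks. It had 28 H3K27ac peaks, all overlapping the gene itself, a higher number than at 98.8% of protein-coding genes. Per 100 kb the number was 8.47, above 76.8% of protein-coding genes, in a gene of 290579 bp, whereas BACE1 had 11.3. The strongest peak, chr21:26168682-26170812, spanned 2131 bp over the inner start, with its summit at 26170602 and a fold enrichment of 31.0 (percentile 97.0). The next, chr21:26170899-26171411, covered the outer start and also overlapped the neighbouring gene APP-DT, with its summit at 26171020 and a fold enrichment of 12.5 (percentile 85.3). Besides the 6 peaks within 5 kb of the outer start, 22 lay 22.5 to 274 kb into the gene with fold enrichments of 3.12 to 10.3 and a median of 4.29. The strongest of these, chr21:26148539-26149254, had its summit 22.5 kb from the outer start (percentile 81.3). Groups of neighbouring peaks also stood with their highest members at 54.1 kb (fold enrichment 9.09), 71.05 kb (7.73) and 137 kb (8.003).

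The 8 CTCF peaks of APP lay towards its 2 ends, 2 of them outside the gene. At the start, the peak chr21:26170599-26171103 had a signal value of 162 (percentile 71.2), and peaks of 106 and 40.2 followed 1.91 and 1.45 kb inside the gene, both under the strongest H3K27ac peak. The strongest, chr21:25881738-25882222, with its summit at 25881986 and a signal value of 272 (percentile 92.2), lay 289 kb from the outer start, near the lower-coordinate end of the gene, and met no H3K27ac. The 3.12 to 10.3-fold H3K27ac peaks in the body met CTCF only once, at a CTCF peak with a signal value of 44.9 that lay 241 kb from the start. No CTCF peak was listed between 1.91 and 241 kb.

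BACE1 (chr11:117285698-117316256, gene ID 23621), the beta-secretase gene, had weak acetylation of its own. The H3K27ac peak over its start, chr11:117315678-117316288, had its summit at 117316210 and a fold enrichment of 5.25 (percentile 56.6). The strongest overlapping the gene, chr11:117300038-117300336, lay 16.1 kb downstream and reached 5.57 (percentile 60.0), below the median of 8.64 over protein-coding genes. It was the highest of 3 adjacent peaks around an internal RefSeq start at 117299722. The strongest peak within 20 kb, chr11:117327795-117328907 with a fold enrichment of 35.1 (percentile 97.8), overlapped the neighbouring gene CEP164, 11.7 kb upstream. The extended interval of BACE1 therefore ranks highest of the 9 genes for H3K27ac through a neighbour. CTCF had 1 peak at BACE1, chr11:117316140-117316600, with its summit at 117316384 over the start and a signal value of 173 (percentile 73.8).

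ADAM10 (chr15:58588809-58749707, gene ID 102), which encodes the main alpha-secretase of neurons, showed acetylation at the start and almost nothing else across 160899 bp. Its 2 H3K27ac peaks flanked the start. The stronger, chr15:58748526-58749822, covered the start with its summit at 58749559 and a fold enrichment of 18.7 (percentile 91.9), and the other had its summit 504 bp upstream with a fold enrichment of 10.1. The only CTCF peak, chr15:58677246-58678045, lay 72.1 kb into the gene with a signal value of 26.1 (percentile 7.74). Its −log10 q was 1.98, just short of the 0.01 threshold for q, and ADAM10 had no CTCF peak once q had to be under 0.01.

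PSEN2 (chr1:226870616-226903668, gene ID 5664) had the fewest peaks, 1 of each list. Its H3K27ac peak, chr1:226870699-226871039, began just inside the gene, with its summit at 226870790, 174 bp downstream of the start, and a fold enrichment of 6.41 (percentile 66.6). Its CTCF peak, chr1:226912631-226912961, had its summit at 226912786 and a signal value of 59.1 (percentile 35.002). It lay 42.2 kb downstream of the start, outside PSEN2 and within a noncoding gene. In strength of its best peak within 20 kb, PSEN2 stood above 28.7% of protein-coding genes for H3K27ac and above 25.7% for CTCF.

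**Figure D3:**
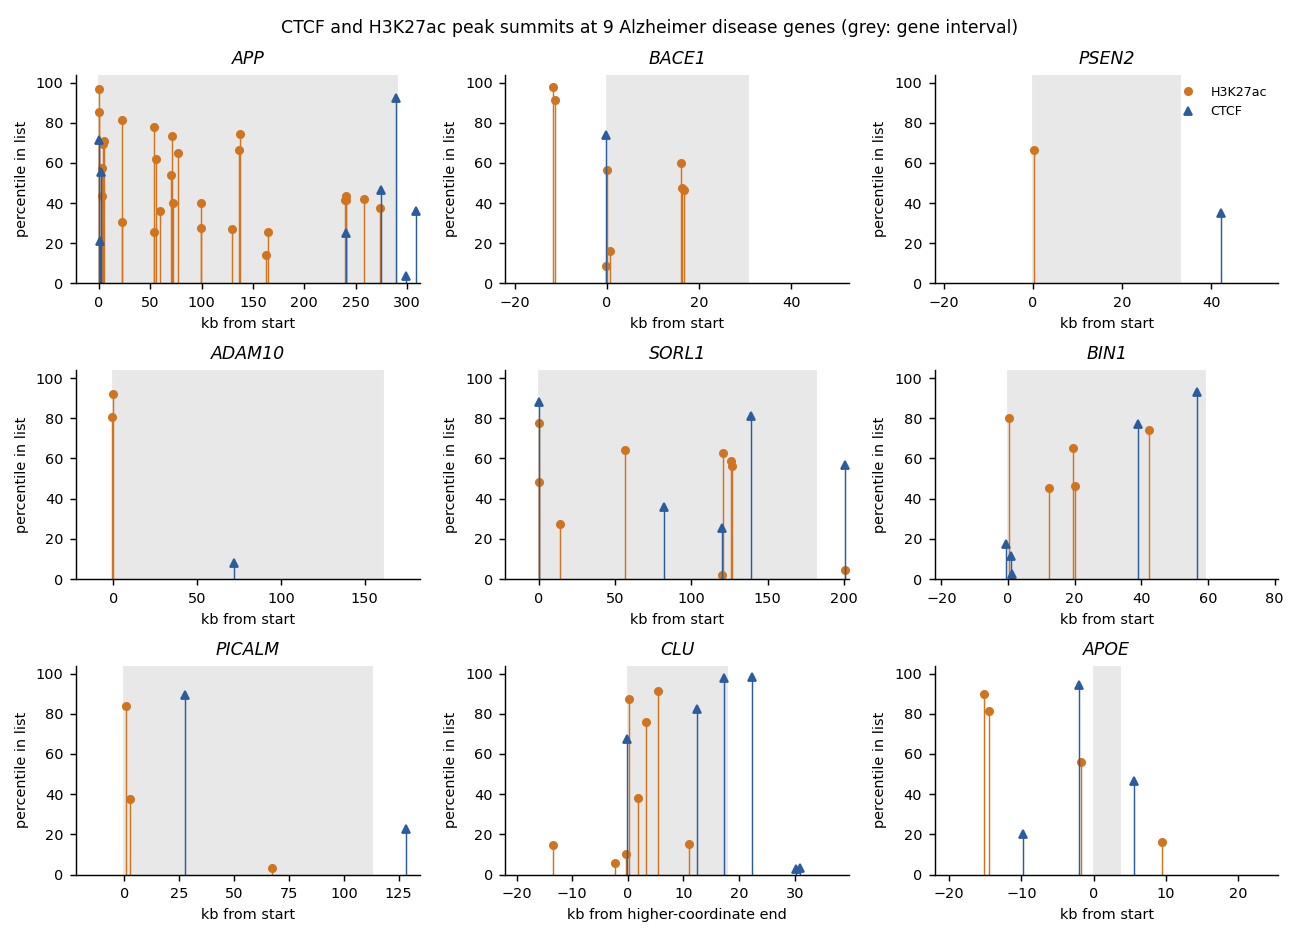
Percentile of each H3K27ac (orange circles) and CTCF (blue triangles) peak within its list, plotted at its summit in kb from the outermost RefSeq start (for CLU, from the higher-coordinate end), with the gene interval in grey. APP and SORL1 carry H3K27ac through the gene body, ADAM10 and PSEN2 only at the start, and the grey interval of APOE is empty.

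Among the 3 trafficking genes, SORL1 (chr11:121452314-121633763, gene ID 6653), a sorting receptor that binds APP, had the strongest CTCF peak over a start. That peak, chr11:121452068-121452568, had its summit at 121452313 and a signal value of 244 (percentile 88.0). It also overlapped the neighbouring gene SORL1-AS1, as did the 2 H3K27ac peaks on either side of the summit. H3K27ac over the same start was moderate: the peak chr11:121452314-121452711, with its summit at 121452441, reached 8.98 (percentile 77.7), which was also the highest of its 9 peaks. Inside the gene, 6 more lay 14.02 to 127 kb from the start with fold enrichments of 2.30 to 6.04. At 120 kb a CTCF peak with a signal value of 45.2 overlapped 2 of them. A CTCF peak of 208 (percentile 81.3), chr11:121591378-121591824, stood alone 139 kb into the gene.

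BIN1 (chr2:127048023-127107154, gene ID 274), which encodes a membrane-bending amphiphysin, had the widest H3K27ac peak of the 9 genes. It ran over 2833 bp, chr2:127105056-127107888, with its summit at 127106938, 216 bp inside the gene, and a fold enrichment of 9.80 (percentile 80.0). All 3 CTCF peaks that it overlapped had the recurrent width of 800 bp and low signal values of 15.1, 29.9 and 36.5. The first of these had a −log10 q of 0.382. The strong CTCF peaks lay deep in the gene without H3K27ac. One, chr2:127068003-127068455, had a signal value of 188 at 38.9 kb. The strongest, chr2:127050083-127050575 with its summit at 127050330, had 277 (percentile 92.9) at 56.8 kb, near the far end. The other 4 H3K27ac peaks lay 12.3 to 42.4 kb inside, with fold enrichments of 4.45 to 7.95.

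PICALM (chr11:85957175-86069860, gene ID 8301), a clathrin-assembly gene, likewise had its acetylation at the start and its strong CTCF site apart from it. The peak chr11:86068022-86070346 spanned both RefSeq starts over 2325 bp, with its summit at 86068961 and a fold enrichment of 11.6 (percentile 83.8). Its other 2 H3K27ac peaks reached 4.10 and 2.43. The weaker had a −log10 q of 0.581 and so a q above 0.05, as did 3 of the 68 H3K27ac peaks of the 9 genes and 6.92% of the whole list. The CTCF peak chr11:86041843-86042316, with its summit at 86042086 and a signal value of 252 (percentile 89.3), was 27.8 kb into the gene. No CTCF peak lay closer to the start.

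The 2 lipid-carrier genes differed in the peaks that overlapped the gene itself, of which CLU had 8 and APOE none, while both had strong CTCF peaks within 20 kb. CLU (chr8:27596917-27614700, gene ID 1191) had 30.8% of its interval under H3K27ac peaks, a larger share than in 96.0% of protein-coding genes and far above the median of 2.13% over the 9 genes. Wide peaks of 2016 and 2394 bp lay inside the gene, with summits 5.50 and 3.28 kb from its higher-coordinate end. The strongest, chr8:27607754-27609769, had its summit at 27609201 and a fold enrichment of 18.1 (percentile 91.4), and the wider one, chr8:27610048-27612441, reached 8.47. The peak at the higher-coordinate end, chr8:27613974-27614763, reached 14.1 (percentile 87.6). CTCF was strong as well. The 2 strongest CTCF peaks at any of the 9 genes were at the lower-coordinate end of CLU: chr8:27592160-27592648, with its summit at 27592398 outside the gene and a signal value of 335 (percentile 98.2), and chr8:27597085-27597568, with its summit at 27597332 and a signal value of 329 (percentile 97.9). Another, with its summit at 27602236, had 213, and none of these 3 overlapped H3K27ac.

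APOE (chr19:44905796-44909393, gene ID 348) is 3598 bp long and no peak of either list overlapped it, a state shared with 22.7% of protein-coding genes. Measured from the outermost APOE start, the nearest peaks lay on the side of TOMM40, the mitochondrial import gene upstream. The CTCF peak chr19:44903550-44904034, with its summit at 44903800 and a signal value of 288 (percentile 94.1), stood 1.996 kb upstream of the outermost APOE start and overlapped the end of TOMM40. A narrow H3K27ac peak, chr19:44904070-44904213, lay beside it, 1.68 kb upstream, with a fold enrichment of 5.19 (percentile 55.8). Downstream, a CTCF peak of 82.1 had its summit at 44911378, which is 5.58 kb from that start but close to the far end of the gene. An H3K27ac peak of 3.24 was listed 9.45 kb from the start, in APOC1. Further upstream, TOMM40 held a CTCF peak of 39.0 at 9.83 kb and an H3K27ac peak of 10.4 (percentile 81.3) at 14.4 kb. The strongest H3K27ac within 20 kb, chr19:44889818-44890946, had a fold enrichment of 16.2 and lay 15.1 kb upstream. It overlapped no gene interval but was next to the peak of 10.4 that overlapped TOMM40.

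Astrocyte markers are given beside these 2 genes because astrocytes are their main source in brain. Of 7 markers, 6 had an H3K27ac peak overlapping the gene (69% of protein-coding genes). Over the 7 the median strongest fold enrichment was 14.3 (8.64 over protein-coding genes), with a highest of 30.4 at GJA1. H3K27ac covered a start in 2 of the 4 with a listed start (46.6% of protein-coding genes), and GJA1 was not among them. ALDH1L1 reached 4.39 inside the gene. AQP4 had no peak of either list within 20 kb, and GFAP had a peak of 62.8 within 20 kb but reached only 2.75 inside the gene. The part of astrocyte-like cells in the values at CLU was not tested.

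Across the 9 genes, 12 of 32 CTCF peaks overlapped H3K27ac, which is 37.5% (95% Wilson interval 22.9 to 54.7%, counting error only), against 28.1% of the whole CTCF list. The whole-list share lies within that interval. For CTCF peaks overlapping the genes without extension the share was 10 of 20, 50% (95% Wilson interval 29.9 to 70.1%), and the whole-list share lies just below that interval. The whole list also holds CTCF peaks outside genes, so it is not a like comparison. Neighbouring peaks are not independent either: all 3 at BIN1 met the same H3K27ac peak. Neither interval is therefore a test. The 12 belonged to APP (4), BIN1 (3), SORL1 (3), BACE1 (1) and CLU (1), and 6 of them had the width of 800 bp. In the other direction 13 of 68 H3K27ac peaks met CTCF, 19.1% (95% Wilson interval 11.5 to 30.0%), against 16.2% of the whole H3K27ac list. The strongest CTCF peak within 20 kb of each of the 9 genes overlapped H3K27ac at BACE1 and SORL1 and not at the other 7, and most CTCF peaks of the whole list also lacked H3K27ac. In the stronger 50% of each list, 5 of 15 CTCF peaks of the 9 genes overlapped H3K27ac, 33.3% (95% Wilson interval 15.2 to 58.3%). The share over the list was 18.6%, within that interval. In order of that strongest CTCF value the genes ran CLU (335), APOE (288), BIN1 (277), APP (272), PICALM (252), SORL1 (244), BACE1 (173), PSEN2 (59.1) and ADAM10 (26.1). For H3K27ac overlapping the gene the order was APP (31.0), ADAM10 (18.7), CLU (18.1), PICALM (11.6), BIN1 (9.80), SORL1 (8.98), PSEN2 (6.41), BACE1 (5.57) and APOE (none). Which neighbours in these orders differ cannot be said without values of single replicates.

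Other genes of the same pathway were counted from separate lists. Of all protein-coding genes, H3K27ac overlapped 69%, and the median strongest fold enrichment was 8.64. H3K27ac overlapped the gene in 6 of 6 members of the APP family and its adaptors, with a median strongest fold enrichment of 23.9, and in 8 of 8 secretase subunits and other sheddases (median 12.3). The highest values there were 32.2 at APLP2, an APP homologue, and 51.8 at ADAM9, another metalloprotease. Among 7 lipoprotein receptors and lipid transporters all 7 carried it (median 21.3), as did all 12 genes of endocytosis and retromer (median 15.3). The clathrin heavy chain gene CLTC reached 76.5, and LRP1, a receptor for APOE, had 41.4 within 20 kb but 14.6 inside the gene. It overlapped 2 of 3 enzymes that degrade amyloid-beta, with a median of 6.49, below that of all protein-coding genes. IDE reached 20.7 and ECE1 reached 6.49, whereas MME had no peak of either list within 20 kb. Both peaks over 1 start, the arrangement of APP, BACE1 and SORL1, occurred in 4 of the 5 APP-family and adaptor genes with a listed start: APBA2, APBB1, APBB2 and APLP2. It occurred in 1 of 4 secretase and sheddase genes, 1 of 3 degrading enzymes, 0 of 5 lipoprotein receptors and lipid transporters and 2 of 10 endocytosis and retromer genes with a listed start, against 12.8% of all protein-coding genes.

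Microglial genes, which include several genes of inherited Alzheimer risk, carried little H3K27ac inside the gene. H3K27ac overlapped 3 of 12 (69% of protein-coding genes), with values of 8.16 at INPP5D, 4.12 at PLCG2 and 3.42 at CSF1R. It covered none of the 10 with a listed start (46.6% of protein-coding genes). An H3K27ac peak lay within 20 kb of 6 of the 12 (81.3% of protein-coding genes). CD33, CR1, CX3CR1, MS4A6A, SPI1 and TREM2 had none. AIF1 had one of 46.8 and ABI3 one of 34.8 within 20 kb, and neither had one inside the gene. Within 20 kb PLCG2 reached 15.7, INPP5D 12.7, TYROBP 4.47 and CSF1R 3.42. CTCF peaks lay within 20 kb of 11 of the 12 (83% of protein-coding genes). In comparison H3K27ac overlapped all 10 neuron markers (median 17.4, highest 47.0 at GAP43) and all 6 neural progenitor markers (median 32.3, highest 50.3 at MSI1). The median over all protein-coding genes was 8.64, and RBFOX3 (5.96), SYN1 (5.54) and NEFL (8.38) were below it. Of those with a listed start, H3K27ac covered one in 5 of 7 neuron markers and 3 of 5 progenitor markers. It covered no start of RBFOX3, SYN1, NES or HES1. The mark was thus listed at markers of both the labelled cell type and its progenitor, though not at every start. It overlapped 3 of 6 oligodendrocyte markers (median 1.84, highest 8.004 at MBP, none within 20 kb of MAG or OLIG2), and SOX10 had the strongest within 20 kb, 10.6. Among liver and muscle markers it overlapped 2 of 8, the highest being 20.4 at MYH7, and ALB, MYH1 and TTR had none within 20 kb.

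**Figure D4:**
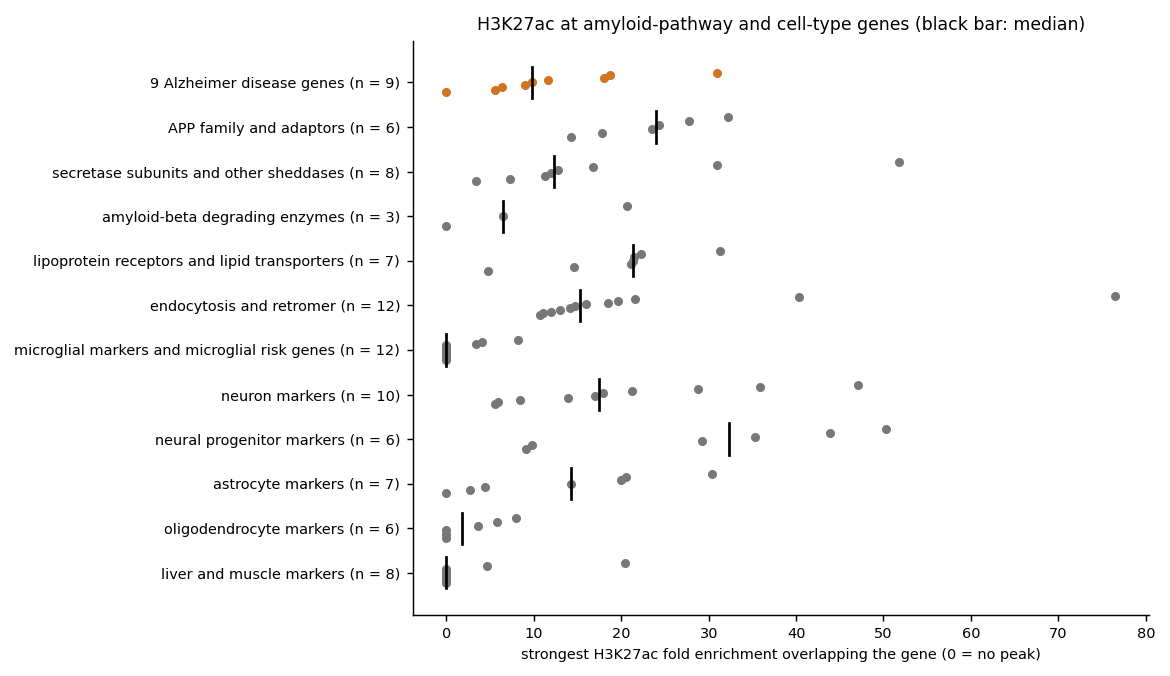
Strongest H3K27ac fold enrichment overlapping each gene (points, 0 where no peak overlaps) in the 9 genes (orange) and 11 other lists (grey), with the median of each list as a black bar. The 9 genes span 0 to 31.0 with a median of 9.80, and 9 of the 12 microglial genes are at 0.

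The pattern of each gene was also set against the others by the sum of the absolute differences in the percentiles of the strongest H3K27ac and the strongest CTCF peak within 20 kb, over these 2 lists and 44 genes each. BIN1 was most like ECE1 (sum 1.34 percentile points), BACE1 most like VPS26A (2.34), CLU most like SORCS2 (2.88), APOE most like NCSTN (3.49) and APP most like LRP1 (3.67). PICALM was also nearest to ECE1 (7.05) and SORL1 to BIN1 (7.24). ADAM10 and PSEN2 had no close counterpart, the nearest being CLTC (11.6) and SORT1 (24.7). Some of the H3K27ac peaks compared lay outside the gene. That of BACE1 (35.1) overlapped CEP164, against 5.57 inside BACE1, and APOE had none inside. VPS26A had 36.1 within 20 kb but 15.9 inside, and LRP1 had 41.4 but 14.6 inside. ECE1 had 10.2 but 6.49 inside, and NCSTN had 15.7 but 11.2 inside. Some of the CTCF peaks compared also lay outside, as at SORCS2 (348 within 20 kb, 221 inside) and NCSTN (318 and 212). The likeness is therefore one of extended intervals and not always of the genes themselves.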

How the data were processed

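ChIP-seq peaks for CTCF and H3K27ac were analysed as the authors deposited them, 1 list of 10 columns per antibody for both replicates. Per the submitters' processing notes, cutadapt 1.16 was used and the build was hg38. The aligner, the peak caller and its settings are not given in the sources used here. The deposited CTCF value is a peak signal on an unstated scale. The H3K27ac value deposited by the authors was read as a fold enrichment, a ratio, from its range and layout. The deposited lists also hold −log10 q values, with a CTCF maximum of 4.78 that is also the median, and a score set by the authors' pipeline, which was not used. No depth can be recovered, so no count test was made.

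Genes, starts and start windows came from RefSeq GRCh38.p14. Overlap meant at least 1 bp. All 9 genes matched the gene table, 8 had a start entry, and all 85 genes of the 11 other lists matched. Members, lists and named items were chosen with earlier results of these data known. Named items were every member, its strongest peaks and those nearest its start, and in each list the gene with the strongest H3K27ac peak and up to 3 genes without one. Other listed genes named in the text were chosen after their values were seen. Counting was tested on simulated intervals (Python 3.11.15, pandas 2.3.3, scipy 1.17.1). Alternatives changed the extension, the stringency of the lists, the definition of overlap and the use of CTCF peaks of 800 bp. Alternatives for the summits in breaks were added after seeing the data.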

Additional observations from a re-analysis of the deposited data

How the results depend on the processing

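No paired analysis was possible because each list covers both replicates and holds no values of single replicates, and leaving out each replicate was not run for the same reason. Of 45 alternatives, 34 left the result within 1.5 times the count, within the Wilson interval or at the same median, and 11 moved it. Without any extension there were 20 CTCF peaks in place of 32, and the medians of the strongest peak were 9.80 for H3K27ac (16.2 with 20 kb) and 244 for CTCF (252 with 20 kb). With 50 kb these medians were 30.6 and 272. Over all protein-coding genes the medians at no extension, 20 kb and 50 kb were 8.64, 14.4 and 19.2 for H3K27ac and 37.2, 167 and 223 for CTCF. In the stronger 50% of each list the 9 genes kept 15 CTCF peaks, 35 of 68 H3K27ac peaks and 1 of 4 summits in breaks. Without the CTCF peaks of 800 bp, 19 CTCF peaks were left. The share of CTCF peaks overlapping H3K27ac (37.5%) was 50% without extension, 18.75% when the CTCF summit had to lie inside an H3K27ac peak and 15.6% with windows of 100 bp on either side of both summits, where the whole list gave 17.9% and 12.5%. Each of these alternatives keeps fewer peaks or a different window by construction, and any further cause was not tested. The unknown depth limits what an absent peak means: at APOE, H3K27ac was not listed, which does not show that it was absent.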
